A study of Mus musculus with 60 samples.

Results

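The cytosolic ribosomal protein genes were examined in the hippocampus of wild-type (WT) and R6/1 mice. They were taken as every gene symbol of the expression table made of Rpl or Rps and a number, with an optional paralog letter or digit, or Rplp0, Rplp1 or Rplp2. Pseudogene symbols and the S6 kinase genes were left out. The rule found 84 genes among 24508 rows, and 79 of them passed the filter of a mean of at least 0.5 RPKM (reads per kilobase of gene, scaled for depth). RNA came from hippocampal tissue of 30-week-old mice of a mixed CBA and C57BL/6 strain, with 9 WT and 9 R6/1 animals sampled as independent biological replicates. The R6/1 line models Huntington's disease through a transgene, absent from WT mice, that holds exon 1 of human huntingtin with its CAG repeat lengthened. RPKM was deposited for all 18 libraries. Lamin B1, which lines the nucleus, was profiled by ChIP-seq against input in 3 pools of 5 mice for either genotype, and the deposited domains form 1 list per genotype. The question asked here is how the genes of the ribosome's protein part stood in the 2 genotypes, at the RNA level and in relation to the lamina.

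Cytosolic ribosomes are built in the nucleolus from ribosomal RNA and about as many proteins as there are genes of the kind described here, one gene for most proteins. The small subunit (Rps genes) reads the messenger RNA and the large subunit (Rpl genes) joins the amino acids, while the stalk proteins Rplp0, Rplp1 and Rplp2 recruit elongation factors. Their mRNAs are abundant, are needed in near-equal amounts, and mostly begin with a C followed by a run of pyrimidines. That start, the terminal oligopyrimidine tract, is known to place their translation under the TOR kinase pathway. These genes are also known for the large number of processed pseudogenes, near-identical copies without introns, that mammalian genomes hold.

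The starts of 10 members are printed because they show what the members share and where they differ in sequence. The sequences are RefSeq's, assembly GRCm38.p6, which is a later build than the one the expression and domain files use. Each window runs 5′ to 3′ from 10 bases before the listed start to 20 bases from it on, and capitals mark a run of pyrimidines that opens with C no more than 5 bases from the start, with at least 4 pyrimidines after the C.
Rpl7a: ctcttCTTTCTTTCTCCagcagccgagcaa
Rpl13a: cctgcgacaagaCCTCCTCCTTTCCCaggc
Rpl15: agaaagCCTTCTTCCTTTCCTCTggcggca
Rpl39: gctccgCCTCTagcgacttcttctaatcgc
Rps6: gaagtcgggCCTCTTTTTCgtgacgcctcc
Rps15a: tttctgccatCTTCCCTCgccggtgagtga
Rps21: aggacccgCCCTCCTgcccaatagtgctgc
Rps3: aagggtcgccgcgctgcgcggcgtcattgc
Rps4x: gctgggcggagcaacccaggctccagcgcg
Rpl7l1: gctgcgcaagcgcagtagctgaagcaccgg
The windows lie at chr2:26910797-26910826 (plus strand) for Rpl7a, chr7:45128726-45128755 (minus) for Rpl13a, chr14:18270967-18270996 (minus) for Rpl15, chrX:37085203-37085232 (minus) for Rpl39 and chr4:86857348-86857377 (minus) for Rps6. They lie at chr7:118116128-118116157 (minus) for Rps15a, chr2:180257369-180257398 (plus, 1 of 2 listed starts) for Rps21, chr7:99483690-99483719 (minus) for Rps3, chrX:102189372-102189401 (minus) for Rps4x and chr17:46782637-46782666 (minus) for Rpl7l1. The marked tract was 17 bases long in Rpl15, 14 in Rpl13a, 12 in Rpl7a and 5 in Rpl39, and the last 3 windows hold none by this definition. In Rpl7a the bases of the window before the marked C are pyrimidines as well, so its run is longer than the 12 bases marked.

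Of the 84 members, 63 had an entry in the promoter table, and 30 of these (47.6%) had a pyrimidine run at a listed start, against 23.9% of 10908 tested genes with an entry. Among all genes of the table the share was 21.2%. With the C exactly at the listed start the shares were 22.2% for the members and 3.05% for the tested genes, so this count depends on how exactly the start is annotated. In the 250 bases before to 50 bases after the start, CCGGAAG on either strand stood in 39.7% of the members and in 18.2% of the tested genes. GGAAGTG stood in 22.2% against 15.7%, AAGATGGC in 9.52% against 4.94%, and TATAAA in 12.7% against 8.87%. A gene with several listed starts counted once if any of them held the letters. The first 2 motifs can overlap in GGAAG.

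The libraries held between 12299434 and 16736544 reads on genes. Hippocampal markers were present in every library, but most markers of excitatory neurons, inhibitory neurons and astrocytes were lower in R6/1. In bulk tissue fewer cells of a type and less RNA per cell cannot be told apart. One library stood apart for the ribosomal protein genes. R6/1 replicate 2 had the highest RPKM of all 18 libraries for 51 of the 79 tested members, while R6/1 replicate 7 had the lowest for 16, WT replicate 6 for 15 and WT replicate 4 for 14. The member counts, their median fold change and the fold changes of Rpl7 and Rpl7a are given with and without R6/1 replicate 2. Rpl3, Rpl5, Rpl6, Rpl10a, Rpl11, Rpl37, Rplp0, Rps3, Rps4x, Rps6, Rps9, Rps20 and Rps21 were among the others highest in that library. Their values are given only with it.

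Summed over all 84 members, tested or not, the level per library ran from 15162 to 17392 RPKM in WT (median 16093) and from 15132 to 18847 RPKM in R6/1 (median 16650). The genotypes overlapped widely: 2 of the 9 R6/1 libraries were above the highest WT library, and 8 of 9 above the WT median. The mean was 16061 ± 708 RPKM over the WT libraries and 16851 ± 1090 RPKM over the R6/1 libraries (SD, n = 9 each), a difference of 4.92%. Leaving out each library in turn moved this difference between 3.36% and 6.26%. As a share of each library's summed RPKM, the members made up 4.79% ± 0.216 (WT) and 5.22% ± 0.260 (R6/1; SD, n = 9 each), and here 7 of 9 R6/1 libraries were above the highest WT library. As a share of the reads on genes they made up 1.22% ± 0.0599 (WT) and 1.36% ± 0.0832 (R6/1; SD, n = 9 each). The share of reads is lower than the share of RPKM because these genes are short. The gene length behind the RPKM had a median of 724 bases over the tested members and 2930 bases over all tested genes.

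**Figure D1:**
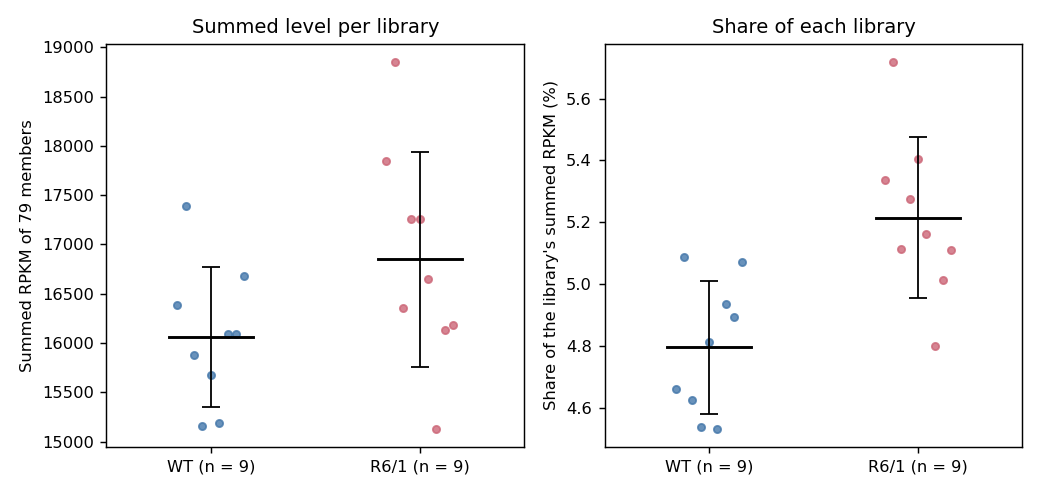
Each point is 1 library, the thick line the mean and the bar the SD of 9 libraries per genotype. The left axis is the summed RPKM of all 84 ribosomal protein genes, although its label names the 79 tested. The right axis is the percent of the library's summed RPKM that the 84 make up. Neither axis starts at 0. The genotypes overlap in the sum, where R6/1 replicate 2 is highest at 18847 RPKM, and overlap less in the share, where 7 of 9 R6/1 points lie above all WT points.

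The members were abundant and mostly lay within a narrow band. Of the 79 tested, 66 had a mean between 100 and 500 RPKM over the 18 libraries, 12 lay below and 1 above, and the median was 201 RPKM. Rplp1, a stalk protein, was the most abundant, with 773 ± 56.9 RPKM in WT (SD, n = 9). It was followed by Rps29, a small zinc-binding protein, with 491 ± 28.5 RPKM. Rps2, at the entry of the mRNA channel, had 405 ± 83.3 RPKM, Rpl9 had 420 ± 35.6 RPKM and Rps21 had 363 ± 22.5 RPKM (SD, n = 9 each). By the mean over all 18 libraries these stood in the order Rplp1, Rps29, Rps2, Rpl9 and Rps21. Whether the last 3 differ within libraries was not tested. The coefficient of variation over the WT libraries was 6.27% at the median, 2.72% in Rps13 at the lowest and 33.2% in Rpl34 at the highest. Rps2 varied most among the abundant members: it ran from 280.3 to 488 RPKM in WT and from 267 to 584 RPKM in R6/1.

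Some rows of core ribosomal proteins were near empty. Rpl26 was listed at 0 RPKM in all 18 libraries. Rpl30 had a mean of 0.374 RPKM in WT and 0.488 RPKM in R6/1 and was not tested. Rpl34 had 0.609 ± 0.202 RPKM and Rps27 1.46 ± 0.482 RPKM in WT (SD, n = 9 each), which was 5.4 and 14.8 reads per library on average over both genotypes. Near-identical copies elsewhere in the genome make reads of these genes ambiguous. The reference transcript of Rpl26 lay to 92.8% in stretches of at least 50 bases found without mismatch elsewhere in build NCBIM37, that of Rpl34 to 95.4%, that of Rps27 to 99.7% and that of Rpl30 to 74.6%. Abundant members had as much: 98.3% in Rps12 (310 ± 15.7 RPKM in WT), 94.6% in Rpl10 (311 ± 15.6 RPKM) and 100% in Rps23 (167 ± 6.48 RPKM, SD, n = 9 each). How the counting treated such reads is not given in the sources used here, and what made the 4 rows low was not tested. The levels of these rows are therefore no measure of the genes' RNA.

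Such copies were the rule in this family. Among the 82 members with a reference transcript, the median share of the transcript in exact stretches elsewhere was 83.2%, 67 members were at 50% or more, and 22 were at 90% or more. Rpl3l and Rpl39l had none. At least 1 copy covering 80% of the transcript was found for 55 members, with 97 copies for Rpl7a, 67 for Rpl29 and 60 for Rps2. The RPKM values also depend on the gene length used. The length behind the RPKM of Rps15a was 5126 bases, against 640 bases of its reference transcript, and that of Rpl22 was 2493 bases against 474, which puts their RPKM (24.7 and 39.5 in WT) below that of most members. The levels of such genes relative to other members are uncertain. The length divides a gene's RPKM alike in every library, so the ratio of RPKM between genotypes does not depend on it. The log2 fold change does so slightly, through the constant added to RPKM before the log. With a smaller constant, that of Rps15a went from 0.301 to 0.305 and that of Rpl22 from 0.0827 to 0.0835. Removing a trend with transcript length within each library moved that of Rpl22 further, to 0.104.

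Between genotypes, more members were higher than lower in R6/1, and the differences were small. By limma's test on log2(RPKM + 0.5), with Benjamini-Hochberg adjustment over all 14446 tested genes, 26 of 79 members were called higher and 1, Rpl29, lower at an adjusted p under 0.05. Over all tested genes 48.3% were called, and the background in this comparison was 24.8% called higher and 23.5% called lower, so the 26 members (32.9%) lie not far above the background for higher calls and the single lower call far below that for lower ones. The log2 fold change (R6/1 minus WT) of the members had a median of 0.083, with 59 positive and 20 negative values between -0.22 and 0.36, against a median of 0.0036 over all tested genes. Of the called members, 22 that were higher and none that was lower were among the 67 members at a mean of at least 100 RPKM. Of 478 other genes at that level, 22.8% were called higher and 39.3% lower. The authors' deposited table called 26 members higher and 1 lower, against 20.0% and 20.4% of its genes. Without R6/1 replicate 2, 24 members were called higher, 23 of them also called with it, and the median was 0.060. Without R6/1 replicate 7, 35 were called higher and the median was 0.10.

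These counts moved with the scaling of the libraries. On the deposited scale 51.4% of all calls were higher in R6/1. Scaling each library to its own summed RPKM raised this to 63.4%, with 49 members called higher and none lower, and scaling to its own total of reads, chosen after the data were seen, raised it to 66.9%, with 51 members higher and none lower. Quantile normalization called 52 members higher and none lower, and removing a trend with transcript length within each library called 46 higher and none lower. All 26 members called higher on the deposited scale were called in each of these. The single lower call, of Rpl29, was lost in each of them. In the order given, the members' median log2 fold change was 0.14, 0.16, 0.15 and 0.13 in these settings, beside 0.051, 0.069, 0.032 and 0.033 over all genes. It was positive in every setting run.

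**Figure D2:**
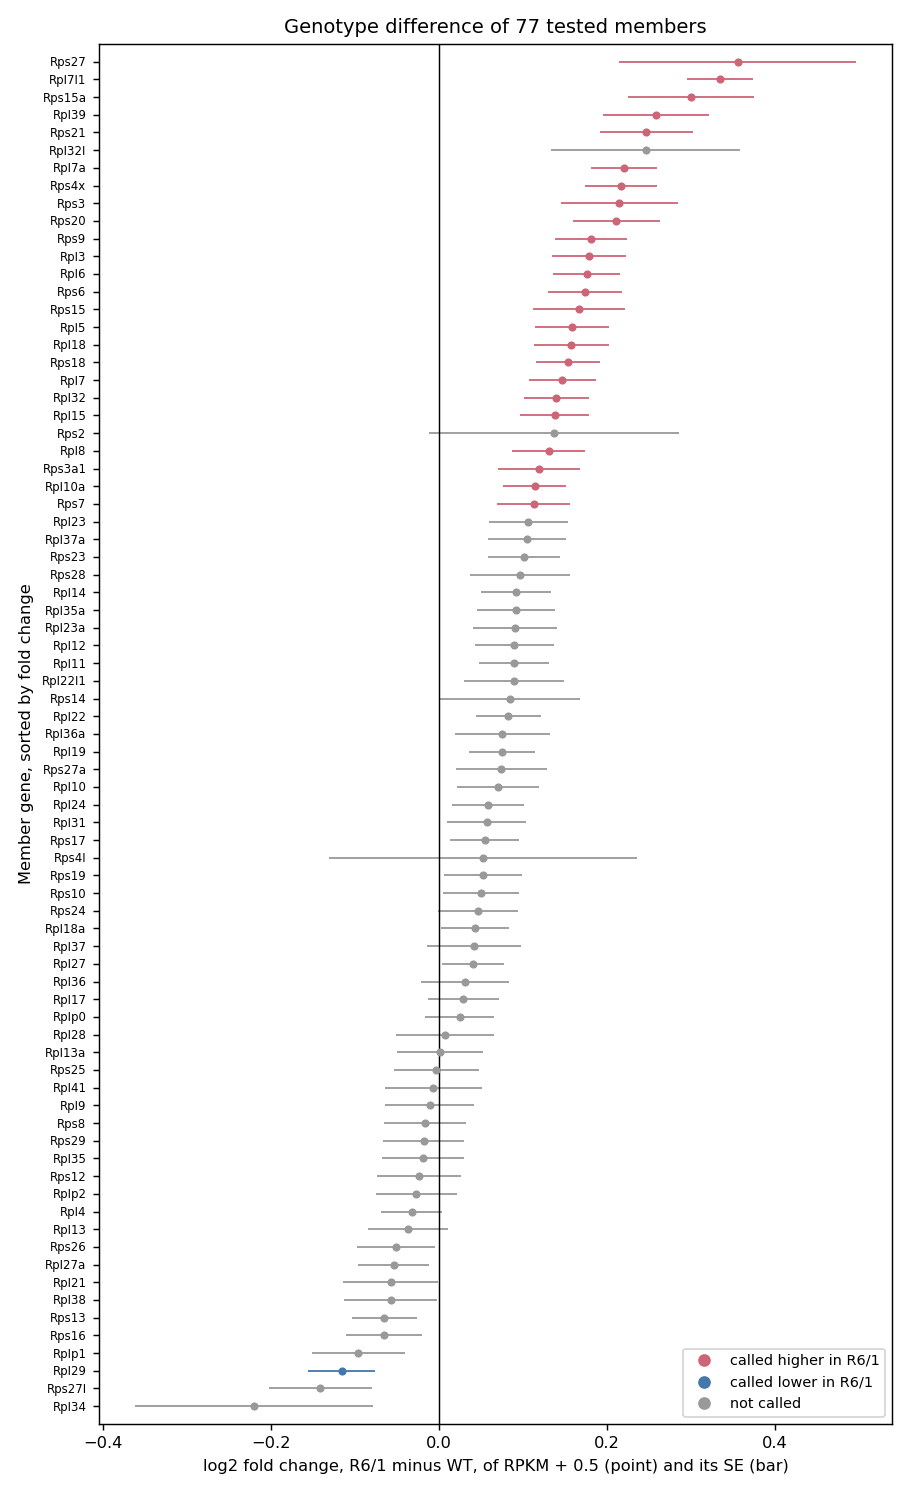
Each row is 1 of 77 of the tested ribosomal protein genes, sorted by its log2 fold change (R6/1 minus WT, of RPKM + 0.5) on the horizontal axis, with its standard error as a bar; red marks members called higher, blue the 1 called lower and grey those not called (limma, adjusted over all genes). Most points lie right of 0, and the red points are those with the largest fold changes apart from Rpl32l and Rps2, whose bars are wide.

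In the large subunit, 11 of 41 tested members (26.8%) were called higher and 1 lower, with a median log2 fold change of 0.075. That share was near the 24.8% of all tested genes called higher. Rpl7a (chr2:26766284-26768838 in NCBIM37, 8 exons) ran from 206 to 240.1 RPKM in WT (median 212) and from 239.9 to 290.1 RPKM in R6/1 (median 249). All but 1 of the R6/1 libraries were above the highest WT library. The log2 fold change came to 0.22 ± 0.039 (SE, limma adjusted p = 1.1e-04), and it was 0.19 without R6/1 replicate 2, the highest library. Rpl39 (chrX:34622515-34625397), a very small protein that lines the exit tunnel for the growing chain, ran from 141 to 189 RPKM in WT (median 160.5) and from 166 to 221 RPKM in R6/1 (median 189.6). Of the R6/1 libraries 5 were above the highest WT library and all 9 above the WT median. On the log2 scale it rose by 0.26 ± 0.063 (SE, limma adjusted p = 0.0020).

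Rpl3 (chr15:79908211-79913836, 10 exons), which reaches towards the catalytic centre, had the most reads of these genes, 8021 per library on average. It ran from 335 to 413 RPKM in WT (median 365) and from 381 to 478 RPKM in R6/1 (median 414), with 6 of 9 R6/1 libraries above all WT libraries. On the log2 scale this was 0.18 ± 0.044 (SE, limma adjusted p = 0.0022). Rpl5, which binds the 5S ribosomal RNA, rose by 11.8% (log2 fold change 0.16 ± 0.044, limma adjusted p = 0.0057), while its partner Rpl11 had a log2 fold change of 0.089 ± 0.041 that missed the threshold (SE, limma adjusted p = 0.079). The other large subunit members called higher were Rpl6, Rpl7, Rpl8, Rpl10a, Rpl15, Rpl18 and Rpl32, with log2 fold changes from 0.11 in Rpl10a to 0.18 in Rpl6.

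Rpl29 (chr9:106331785-106333899, 4 exons) was the only member called lower. It ran from 88.5 to 106 RPKM in WT (median 100.5) and from 84.3 to 103 RPKM in R6/1 (median 90.2). No R6/1 library was above the highest WT library and 1 was above the WT median, but the ranges overlapped. Its log2 fold change was -0.12 ± 0.040 (SE, limma adjusted p = 0.022). It was not called under quantile normalization, both scalings to a library's own total or with a length or GC trend removed (limma adjusted p = 0.064 to 0.40). The 67 near-full copies of its transcript elsewhere make its reads uncertain. This limit holds for members called higher too: Rpl7a had 97 such copies. Of the members called higher, 20 had at least 50% of the transcript in exact stretches elsewhere and 6 had less. Rpl9, among the most abundant, differed by -0.011 ± 0.053 on the log2 scale (SE, limma adjusted p = 0.88), and was positive but not called under quantile normalization, both scalings to a library's own total and with the length trend removed, at 0.040 to 0.072. Rpl34 differed by -0.22 ± 0.14 at 2 to 10 reads per library (SE, limma adjusted p = 0.21).

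In the small subunit, 14 of 30 tested members (46.7%) were called higher and none lower, beside 24.8% and 23.5% of all tested genes. Their median log2 fold change was 0.11. Whether the subunits differ was not tested. Rps21 (chr2:179992082-179993150, 6 exons) ran from 337 to 392 RPKM in WT (median 359) and from 381 to 513 RPKM in R6/1 (median 434). Of the R6/1 libraries 7 were above the highest WT library, and the other 2 lay within the WT range. Its log2 fold change was 0.25 ± 0.055 (SE, limma adjusted p = 0.0010). Rps4x (chrX:99380280-99384733, 7 exons), the X-linked copy of the S4 protein, ran from 222 to 280.2 RPKM in WT (median 241) and from 256 to 318 RPKM in R6/1 (median 284). Only WT replicate 2 lay inside the R6/1 range, and the other 8 WT libraries lay below it. The log2 fold change came to 0.22 ± 0.043 (SE, limma adjusted p = 3.3e-04).

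Rps15a (chr7:125247892-125259700, 5 exons) ran from 20.5 to 28.6 RPKM in WT (median 25.3) and from 24.2 to 34.5 RPKM in R6/1 (median 31.5). Here 6 of 9 R6/1 libraries were above all WT libraries. On the log2 scale it rose by 0.30 ± 0.075 (SE, limma adjusted p = 0.0025). Rps3 (chr7:106626406-106632248, 7 exons), which sits where the mRNA enters the ribosome, ran from 96.5 to 128 RPKM in WT (median 117) and from 113 to 155 RPKM in R6/1 (median 127). The ranges overlapped, with 4 R6/1 libraries above the highest WT library. On the log2 scale this was 0.21 ± 0.069 (SE, limma adjusted p = 0.015), and only 13.6% of its transcript lay in exact stretches elsewhere.

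Rps6 (chr4:86500564-86503316, 5 exons), the protein that S6 kinase phosphorylates, ran from 167.5 to 194 RPKM in WT (median 172) and from 184 to 235 RPKM in R6/1 (median 192.5). All 9 R6/1 libraries were above the WT median and 4 above the highest WT library. It rose by 0.17 ± 0.044 on the log2 scale (SE, limma adjusted p = 0.0026). Rps9 was, with the paralog Rpl7l1, 1 of 2 members whose genotypes did not overlap, where 11.9% of all tested genes did not overlap. It ran from 205 to 234 RPKM in WT and from 235 to 290 RPKM in R6/1, and the gap between the ranges was small. Its log2 fold change was 0.18 ± 0.043 (SE, limma adjusted p = 0.0015).

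Rps27 (chr3:90016593-90017573, 4 exons) had the largest fold change of all members on very few reads. It ran from 0.880 to 2.23 RPKM in WT (median 1.43) and from 1.46 to 2.65 RPKM in R6/1 (median 1.84), which was 6 to 23 reads per library. The ranges overlapped, with 3 R6/1 libraries above the highest WT library. The log2 fold change of 0.36 ± 0.14 passed the threshold narrowly (SE, limma adjusted p = 0.043), and it did not pass with no filter on low values, in voom on the recovered reads, in the authors' deposited table (adjusted p = 0.12) or in 10 of the 18 fits that left out 1 library. Those were the fits without WT replicate 2, 3, 5, 7 or 8 or R6/1 replicate 3, 4, 6, 7 or 8, with limma adjusted p values from 0.053 to 0.088. Among the abundant small subunit genes, Rps29 differed by -0.018 ± 0.048 on the log2 scale (SE, limma adjusted p = 0.78), which changed sign and passed as higher under quantile normalization. It was positive but not called, at 0.021 to 0.055, under both scalings to a library's own total and with a length or GC trend removed. Rps2 differed by 0.14 ± 0.15 (SE, limma adjusted p = 0.47). Other small subunit members called higher were Rps3a1, Rps7, Rps15, Rps18 and Rps20.

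**Figure D3:**
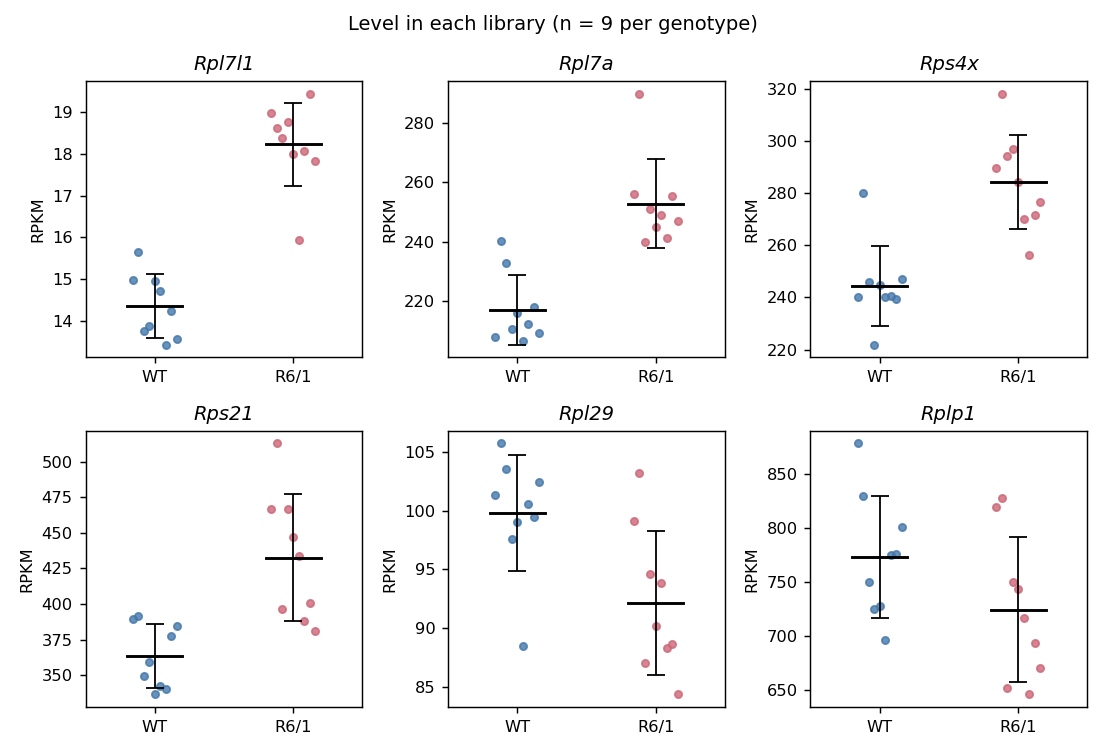
Level in RPKM of 6 members in each library (points), with the mean (thick line) and SD (bar) of 9 libraries per genotype; the axes do not start at 0. Rpl7l1 does not overlap between genotypes, Rpl7a, Rps4x and Rps21 overlap in a few libraries, and Rpl29 and Rplp1 have lower means in R6/1 with wide overlap, that of Rplp1 not under quantile normalization.

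None of the 3 stalk genes was called, and none had an unadjusted p under 0.05. Rplp1 (chr9:61761091-61762345) ran from 696 to 878 RPKM in WT (median 775) and from 645.5 to 827 RPKM in R6/1 (median 716). No R6/1 library was above the highest WT library, and the ranges overlapped over most of their length. The log2 fold change was -0.096 ± 0.056 for Rplp1, -0.027 ± 0.048 for Rplp2 and 0.025 ± 0.041 for Rplp0 (SE), with limma adjusted p values of 0.16, 0.67 and 0.65. Rplp0 passed as higher under quantile normalization and under both scalings to a library's own total. Rplp1 turned to 0.089 under quantile normalization, and Rplp2 turned positive under that, both scalings to a library's own total and with a length or GC trend removed, at 0.021 to 0.046, none of them called.

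Paralogs stand in for, or act beside, a parent ribosomal protein in some tissues. The muscle paralog Rpl3l had a mean of 0.0880 RPKM in WT, at most 4 reads in a library, and the paralog Rpl39l one of 0.0927 RPKM, at most 5 reads. Rpl10l was listed at 0 in every library. Rpl22l1 (chr3:28704358-28706274) was well expressed, from 58.4 to 75.9 RPKM in WT (median 71.1) and from 63.7 to 85.1 RPKM in R6/1 (median 71.0), with overlapping ranges and nearly equal medians. The log2 fold change came to 0.089 ± 0.059 (SE, limma adjusted p = 0.23). Its parent Rpl22 ran from 37.1 to 42.7 RPKM in WT (median 39.3) and from 36.4 to 45.7 RPKM in R6/1 (median 41.8), and was not called (limma adjusted p = 0.083). It passed as higher without WT replicate 1 or R6/1 replicate 7 (limma adjusted p = 0.042 and 0.014), with library weights (0.045), under quantile normalization (0.0060), with own summed RPKM (0.0015), with own total of reads (7.1e-04) and with the length trend removed (0.029). Rps27l, a paralog known as a target of p53, had 12.4 ± 0.979 RPKM over the WT libraries and 11.2 ± 1.30 RPKM over the R6/1 libraries (SD, n = 9 each), with a limma adjusted p of 0.064. It passed as lower without WT replicate 2, R6/1 replicate 1 or R6/1 replicate 6 (limma adjusted p = 0.039, 0.017 and 0.032), and with library weights (0.047). Rps4l, a gene with 1 exon, had 12.7 ± 3.28 RPKM over the WT libraries and 13.6 ± 5.03 RPKM over the R6/1 libraries (SD, n = 9 each), with a limma adjusted p of 0.83.

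Rpl7l1 (chr17:46910856-46919605 in NCBIM37, 7 exons), an Rpl7-like protein, was the member with the clearest difference. It ran from 13.4 to 15.6 RPKM in WT (median 14.2) and from 15.9 to 19.4 RPKM in R6/1 (median 18.4), and the ranges did not overlap. Its mean in R6/1 was 27.0% above that in WT (log2 fold change 0.33 ± 0.039 SE, limma adjusted p = 8.8e-07). Its adjusted p stayed between 3.4e-13 and 3.3e-05 over all alternatives. Its transcript lay to 36.3% in exact stretches elsewhere, and no near-full copy was found. Its parent Rpl7 rose as well, by 0.15 ± 0.040 (SE, limma adjusted p = 0.0043), and its mean went from 224 ± 9.74 RPKM over WT libraries to 248 ± 17.0 RPKM over R6/1 libraries (SD, n = 9 each).

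The ratio of paralog to parent was compared in the 4 pairs with both genes tested, by two-sided exact permutation over the 48620 ways to choose 9 of 18 libraries. The log2 ratio of Rpl7l1 to Rpl7 ran from -4.01 to -3.85 in WT (median -3.92) and from -3.90 to -3.58 in R6/1 (median -3.72). All 9 R6/1 libraries were above the WT median, with a few inside the WT range. The difference was 0.19 (exact permutation p = 5.8e-04, 0.0023 adjusted over the 4 ratios). The ratio of Rps27l to Rps27 was lower in R6/1 by 0.50 on the log2 scale, from a WT mean of 2.75 ± 0.380 to 2.25 ± 0.308 (SD, n = 9 each; exact permutation p = 0.0076, adjusted 0.015), but it rests on the near-empty Rps27 row. The ratio of Rpl22l1 to Rpl22 differed by 0.0065 (exact permutation p = 0.91, adjusted 0.91). The ratio of Rps4l to Rps4x differed by -0.16 (exact permutation p = 0.45, adjusted 0.60).

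**Figure D4:**
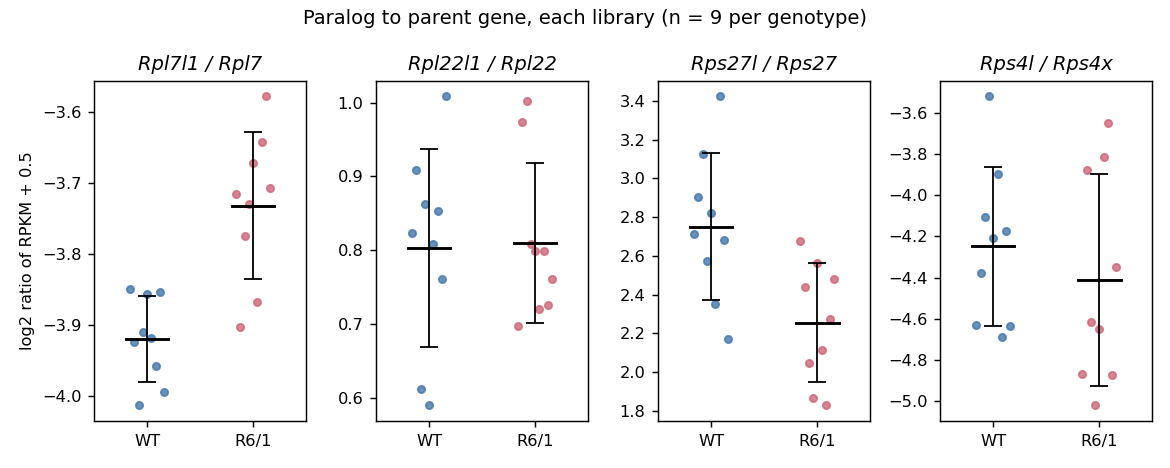
The vertical axes give the log2 ratio of a paralog's RPKM + 0.5 to its parent's in each library (points), with the mean (thick line) and SD (bar) of 9 libraries per genotype, each panel on its own scale. The Rpl7l1 ratio is higher in R6/1, from a WT median of -3.92 to -3.72; the Rps27l ratio is lower, with all 9 R6/1 points under the WT median; the other 2 pairs overlap throughout.

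The ribosome has proteins whose gene symbols fall outside the naming rule, and these did not move together. Rpsa, the small subunit protein also known as the laminin receptor, ran from 208 to 279 RPKM in WT (median 249) and from 173.5 to 214 RPKM in R6/1 (median 194). The ranges overlapped only at the lower end of WT. Its log2 fold change was -0.29 ± 0.054 (SE, limma adjusted p = 1.5e-04), a larger fall than that of any tested member. Rack1, a signalling scaffold on the small subunit, rose by 0.13 ± 0.042 (SE, limma adjusted p = 0.012), from 127 ± 5.86 to 139 ± 10.5 RPKM (SD, n = 9 each). Fau and Rpl36al were not called, with log2 fold changes of -0.0033 and -0.082.

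Of the factors that assemble ribosomes, 20 of 46 tested genes (43.5%) were called higher and 1 lower, beside 24.8% and 23.5% of all tested genes. Their median log2 fold change was 0.10, beside 0.0036 over all genes. Fbl, the methyltransferase fibrillarin, which modifies ribosomal RNA, had the largest rise, from 19.4 ± 1.47 RPKM among WT animals to 30.6 ± 2.56 RPKM among R6/1 animals (SD, n = 9 each), without overlap of the ranges. On the log2 scale this was 0.64 ± 0.051 (SE, limma adjusted p = 4.5e-09). Las1l, part of the cleavage of the ribosomal RNA precursor, rose by 0.39 ± 0.046 (SE, limma adjusted p = 9.1e-07), also with no overlap, and Nip7 fell by 0.21 ± 0.049 (SE, limma adjusted p = 0.0012). Among RNA polymerase I genes, which transcribe ribosomal RNA, 4 of 14 were called higher (28.6%, near the 24.8% of all tested genes) and 3 lower. The catalytic subunit gene Polr1a rose by 0.47 ± 0.058 (SE, limma adjusted p = 1.7e-06) and Polr1c, which polymerase III shares, by 0.31 ± 0.039 (SE, limma adjusted p = 2.6e-06). The activator Ubtf fell by 0.25 ± 0.028 (SE, limma adjusted p = 6.2e-07) and the subunit Znrd1 by 0.18 ± 0.071 (SE, limma adjusted p = 0.046).

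Of 18 other mRNAs known to start with a pyrimidine tract, 8 were called higher (44.4%, beside 24.8% of all tested genes) and 2 lower. Their median was 0.089. Naca, which meets new chains at the tunnel exit, rose by 0.23 ± 0.035 (SE, limma adjusted p = 1.8e-05) and the elongation factor gene Eef1b2 by 0.22 ± 0.041 (SE, limma adjusted p = 1.9e-04). Hnrnpa1 fell by 0.25 ± 0.083 (SE, limma adjusted p = 0.017) and Tpt1, abundant at 424 ± 23.7 RPKM in WT (SD, n = 9), fell by 0.16 ± 0.046 (SE, limma adjusted p = 0.0076). Within the members themselves, 10 of the 30 with a pyrimidine start were called higher, with a median log2 fold change of 0.091, and 9 of the 29 tested members with an entry and no such start, with a median of 0.075. The difference between these shares was not tested, and Rpl7l1, Rps4x and Rps3, printed above without a tract, were among those that rose.

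Translation initiation factors had 18 of 27 genes called higher (66.7%, beside 24.8% of all tested genes) and 2 lower, with a median of 0.12. Eif3c rose by 0.29 ± 0.038 (SE, limma adjusted p = 3.1e-06) and Eif3d by 0.25 ± 0.037 (SE, limma adjusted p = 1.7e-05), both subunits of the scaffold eIF3. Eif4h fell by 0.14 ± 0.037 (SE, limma adjusted p = 0.0032) and Eif3k by 0.14 ± 0.049 (SE, limma adjusted p = 0.022). Of 25 genes of the TOR pathway and its targets, 10 (40.0%) were called higher and 5 lower, with a median of 0.041. Rictor, a subunit of the second TOR complex, rose by 0.30 ± 0.040 (SE, limma adjusted p = 3.4e-06) and Deptor, a TOR inhibitor, by 0.29 ± 0.11 (SE, limma adjusted p = 0.031). The transcription factor gene Mycn fell by 0.41 ± 0.10 (SE, limma adjusted p = 0.0026). Mitochondrial ribosomal protein genes, which serve a separate ribosome, had 23 of 78 called higher and 3 lower, with a median of 0.057. The higher calls (29.5%) were near the 24.8% of all tested genes. Mrps31 rose by 0.35 ± 0.051 and Mrpl16 by 0.33 ± 0.047, while Mrpl36 fell by 0.29 ± 0.064 and Mrps33 by 0.22 ± 0.061 (SE, limma adjusted p = 1.3e-05, 8.0e-06, 7.7e-04 and 0.0049).

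**Figure D5:**
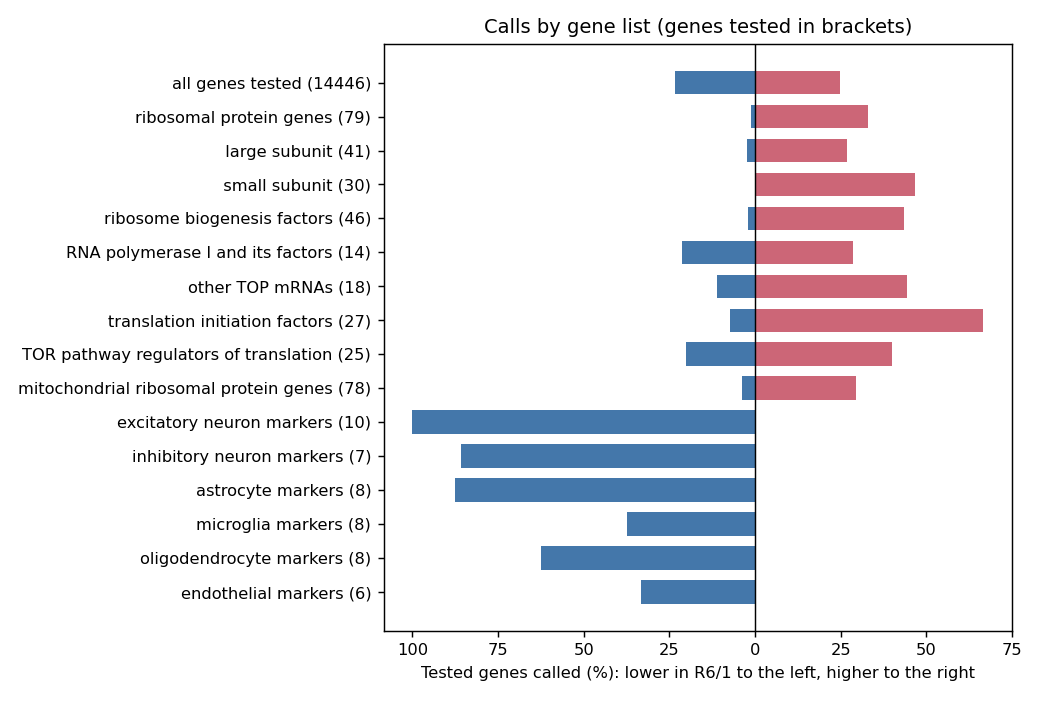
Each bar gives the percent of a list's tested genes (number in brackets) called higher (red, right) or lower (blue, left) in R6/1 by limma, adjusted over all 14446 genes. Ribosomal protein genes and the lists of ribosome assembly and initiation lie mostly to the right, and the cell type markers lie to the left.

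Markers of cell types moved with genotype in these same libraries. All 10 excitatory neuron markers, 6 of 7 inhibitory neuron markers, 7 of 8 astrocyte markers, 5 of 8 oligodendrocyte markers, 3 of 8 microglia markers and 2 of 6 endothelial markers were called lower in R6/1 and none higher. Over all tested genes 23.5% were called lower. The summed level of the excitatory list was 2311 to 2777 RPKM in WT and 1396 to 1622 RPKM in R6/1, that of the inhibitory list 387 to 484 and 232 to 297 RPKM, and that of the astrocyte list 1146 to 1507 and 913 to 1177 RPKM. The oligodendrocyte list summed to 1064 to 1365 RPKM in WT and 668 to 1143 RPKM in R6/1, the microglia list to 158 to 250 and 127 to 195 RPKM, and the endothelial list to 41.9 to 77.9 and 49.5 to 76.4 RPKM. Choroid plexus markers varied from 25.9 to 1077 RPKM in WT and from 38.4 to 1748 RPKM in R6/1, and 0 of 8 were called. With their mean level as a covariate, the members called were again 26 higher and 1 lower. Of the red blood cell list 5 of 7 genes were listed at 0, and Alas2, the 1 tested, was lower. The part of the cell type lists in the members' differences was not tested.

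Members with less and members with more of the transcript in exact stretches elsewhere were among those that rose. Of the 13 tested members with less than 50%, 6 were called higher and none lower, with a median log2 fold change of 0.057. Those called included Rpl5, at 49.9%, and Rpl7l1, Rpl8, Rps3 and Rps20. Of the 64 with 50% or more, 20 were called higher and 1 lower, with a median of 0.084. Over all tested genes 24.8% were called higher. Whether these groups differ was not tested.

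Lamin B1 domains, long stretches of chromatin called at the nuclear lamina, held few of these genes. Domains and genes were compared on build NCBIM37, with 145 domains in WT and 166 in R6/1, and the lists have no replicates. The transcription start of 8 of 82 placed members (9.76%) lay in a domain of either genotype, against 13.3% of 13971 placed tested genes. Counting only domains that scored above the median of their list, it was 6 of 82 (7.32%) against 10.8%. Members in a domain of WT only then numbered 2 instead of 3, and those of R6/1 only 0 instead of 1. The placed members include untested ones, such as Rpl10l at 0 RPKM, so these shares are over unlike sets. The starts of Rpl7, Rpl24 and Rpl10l lay in domains of both genotypes. Rpl7 (chr1:16091376-16094743) lay in a WT domain of 19.4 Mb and an R6/1 domain of 17.8 Mb, and Rpl24 (chr16:55966388-56009026) in domains of 19.1 and 18.1 Mb. Rpl7 and Rpl24 were expressed at 224 ± 9.74 and 183 ± 13.3 RPKM in WT (SD, n = 9 each), so levels near the members' median occurred inside the called domains.

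In WT alone, the starts of Rps4x and Rpl10 lay in one X-chromosomal domain of 67.6 Mb (chrX:52540001-120139000), and that of Rps20 (chr4:3758481-3762812) in a domain of 5.25 Mb (chr4:3034001-8288000). Rps20 ran from 31.6 to 39.1 RPKM in WT (median 32.6) and from 35.0 to 46.1 RPKM in R6/1 (median 39.3). All 9 R6/1 libraries were above the WT median and 5 above the highest WT library. It rose by 0.21 ± 0.052 on the log2 scale (SE, limma adjusted p = 0.0021). Rps4x rose, as given above. Rpl10, in the same WT domain, differed by 0.070 ± 0.049 on the log2 scale (SE, limma adjusted p = 0.25). Under quantile normalization, both scalings to a library's own total and with the length trend removed, Rpl10 passed as higher, at 0.12 to 0.16. In R6/1 alone, the start of Rpl37 (chr15:5066613-5069140) lay in a domain of 2.04 Mb (chr15:4107001-6142000), which did not score above the median of its list. The log2 fold change of Rpl37 was 0.042 ± 0.056 (SE, limma adjusted p = 0.57). Rpl24 was not called on the deposited scale, at 0.058 ± 0.043 (SE, limma adjusted p = 0.28), with all 9 R6/1 libraries above the WT median, and passed as higher in the same 4 settings as Rpl10, at 0.11 to 0.13. Of the 3 members in a domain of WT only, 2 rose on the deposited scale, beside 26 of all 79 and 24.8% of all tested genes. With 3 genes this gives no share to compare, and a link with the domains was not tested. For the 74 members outside domains, the nearest domain lay at a median distance of 4.37 Mb in WT and 4.07 Mb in R6/1.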

How the data were processed

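The members and the gene lists were chosen with earlier results of these data known. The authors deposited RPKM per gene symbol for 9 WT and 9 R6/1 RNA libraries, from stranded mRNA libraries per the labels' protocols, and a table of their own comparison with mean normalized counts (unit signal), log2 fold changes with standard errors, a test score and p-values. Per the submitters' processing notes the RNA experiment used TopHat, DESeq2 and mm9, and the ChIP experiment Bowtie and mm9; the counter and the annotation are not given in the sources used here. The deposited domain lists carry 1 score per domain, which served only to split a list at its median. Versions and the way the 3 ChIP replicates were combined are not given in the sources used here.

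Genes were tested with limma 3.58.1 (R 4.3.3) and its variance trend, two-sided, on log2(RPKM + 0.5). The 14446 genes whose mean reached 0.5 RPKM entered, p-values were adjusted by Benjamini-Hochberg, and the threshold was 0.05. Fold changes on this scale understate those of low genes. The deposited RPKM, multiplied by a length factor per gene from the authors' table, were whole multiples of 1 step per library for 99.89% to 99.92% of values (tolerance 0.05 of a read), which gave the reads and the gene lengths quoted. By counting error alone a count of 0 allows up to 3 reads. The test was also run on simulated data for this comparison (14374 genes), with 50 genes changed at each of the sizes given here. It recovered 10.0% of changes of 0.15, 48.0% of 0.3 and 92.0% of 0.6 on the log2 scale. Of its calls, 3.15% were unchanged genes. In the real data 48.3% of genes were called, so the adjusted threshold was stricter in the simulation and these rates do not carry over.

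Genes were placed on NCBIM37 (mm9) with GENCODE vM1 by symbol (80 members) or RefSeq synonym (2); Rpl41 and Rpl32l were not placed. Copies were sought with BLAST+ 2.17.0 among alignments of at least 85% identity. Sequences are RefSeq's, GRCm38.p6; Rps14 and Rpl17 windows are not reported here. Genes named are the 8 called members with the largest rise and the 8 with the largest fall, the 5 most and 5 least abundant, the paralog pairs, the stalk genes, Rps6, members in domains and, per list, the 2 largest called rises and falls; Rps9, Rpl5, Rpl11, Rpl13a, Rpl15, Rpl30, Rps12 and Rps23 and names given only to complete a count were added after their values were seen. Some genes that this rule names are not reported here. ATAC-seq was not analysed here. The labels give both genotypes the same replicate numbers without saying what a number shares.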

Additional observations from a re-analysis of the deposited data

Results flagged for a closer look

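Among the named members, 58 groups of 9 libraries were checked for 1 library far from the other 8, and chance alone flags about 1 in 20 groups, or 2.9 here; 6 were found. Rpl7 in R6/1 replicate 2 was at 285 RPKM, with the next library at 258, and Rpl7a in the same library was at 290.1 RPKM, with the next at 256. Without that library the log2 fold change was 0.12 for Rpl7 (limma adjusted p = 0.0065) and 0.19 for Rpl7a (limma adjusted p = 1.1e-04). Rpl22 in R6/1 replicate 7 was at 36.4 RPKM, with the next at 41.5, and without it Rpl22 was called higher, at 0.11 (limma adjusted p = 0.014). Rpl7l1 in R6/1 replicate 6 was at 15.9 RPKM, with the next at 17.8, and its log2 fold change was 0.36 without it. Rpl29 in WT replicate 6 was at 88.5 RPKM, with the next at 97.6, and its fall was -0.14 without it (limma adjusted p = 0.0053). Rps4x in WT replicate 2 was at 280.2 RPKM, with the next at 247, and its log2 fold change was 0.24 without it.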

How the results depend on the processing

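The count of members called higher moved from 26 to 52 under quantile normalization, 49 with each library scaled to its own summed RPKM, 51 with its own total of reads (chosen after seeing the data) and 46 with the length trend removed; lower calls were 0 in each of these and with the GC trend removed, and 2 with library weights. The members' median log2 fold change, 0.083, became 0.15 under quantile normalization and 0.16 with own total of reads. Rps29 changed sign to 0.14 under quantile normalization. Leaving out 1 library gave 22 to 35 higher, 1 to 2 lower, a median of 0.060 to 0.10, and 6665 to 7175 calls over all genes (3425 to 3671 higher, 3237 to 3504 lower). The summed level differed by 3.36% to 6.26%; the ratios ran from 0.17 to 0.21 (Rpl7l1), -0.57 to -0.41 (Rps27l), -0.020 to 0.032 (Rpl22l1) and -0.26 to -0.073 (Rps4l). Members with a pyrimidine start numbered 14 instead of 30 with no shift. The cause was not tested, apart from the stricter start. Of 978 values of single members under an alternative, 910 kept their direction and side of the threshold, 22 changed sign without being called, 27 newly passed, 18 no longer passed and 1 reversed.

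Libraries with the same replicate number correlated between -0.053 and 0.24 in their deviations, over 0.1 in 3 of 9 pairs, and 2 of 9 WT libraries correlated best with their own number. With the replicate number as a block, 29 members were higher and 2 lower, Rps27l newly passed as lower (limma adjusted p = 0.036), and the ratio of Rps27l to Rps27, -0.50, had an adjusted p of 0.055 (exact sign-flip test). Depth limits Rps27 and Rpl34. The simulation held far fewer changed genes than these data, so it does not give the share of changes of 0.15 missed here.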
